A study of Mus musculus with 20 samples.

Results

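The miRNAs described here are the mature arms cut from the hairpins that run from miR-379 to miR-410 on mouse chromosome 12, a cluster named after the noncoding gene Mirg. They were chosen by name, from a list of 34 hairpin numbers, with no threshold on their counts. Earlier results of these data were known when the list was chosen. Of 1063 miRNAs present in the count tables of both cell lines, 64 carried these names, as both arms of 32 hairpins. No entry was named miR-299 or miR-496. The tables hold miR-496a, a hairpin of the same stretch that the list of numbers does not name, and it was not counted as a member. All 64 passed the filter on low counts.

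Small RNA was sequenced while mouse embryonic stem cells, held in the naive state in 2i medium (inhibitors of Mek and Gsk3), were turned into epiblast stem cells, the primed state, in N2B27 medium with activin A and Fgf2 on fibronectin. A female line (PGK) and a male line (E14) were each sampled at day 0 in 2i and at days 4, 10, 19 to 23 and 27 to 30 after the medium change. This gives 10 groups of 2 libraries. The 2 libraries of a group come from separate differentiation experiments, which the labels number 2 and 3, so the p-values measure the spread between those 2 experiments. Each sex is represented by 1 line, so that sex and line cannot be told apart, and the labels name no altered gene in either. The later windows pool nearby days. The female libraries of experiments 2 and 3 are from days 23 and 21 and, late, both from day 29. The male ones are from days 21 and 19 and, late, from days 27 and 30. The day 0 libraries of experiment 3 carry a cell-type label that joins both states, although their titles and day label say 2i and day 0.

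The hairpins lie in the imprinted Dlk1-Dio3 domain. There the paternal chromosome expresses protein-coding genes such as Dlk1 and Rtl1, and the maternal chromosome expresses noncoding RNAs, Meg3, Rian and Mirg, and the many miRNAs that are cut from them. The miR-379 to miR-410 hairpins are cut from long transcripts that carry many hairpins in tandem, and they are found in placental mammals. They are known for their high levels in embryo and brain, and the maternal RNAs of the domain are silenced in some mouse pluripotent stem cell lines.

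In the GENCODE M21 annotation of GRCm38, the 32 hairpins occupy 34.7 kb of the plus strand of chromosome 12, from 109709060 to 109743795. The annotated Mirg gene spans 109729764 to 109749460. Of the hairpins, 8 overlapped an exon of Mirg, 3 an intron (miR-154, miR-541 and miR-409), and 21, from miR-379 to miR-544, lay upstream of its annotated start. Compared within a library, the members differed widely in level. By the mean over the 20 libraries, in CPM (counts per 1e6, scaled with TMM factors), 11 members exceeded 1000 CPM, 23 lay between 100 and 1000, 20 between 10 and 100, and 10 below 10.

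The 6 most abundant members made up 78.8% to 89.4% of the members' counts in each library. Their mature sequences are given 5′ to 3′ from the RefSeq miRNA table for GRCm38.p6, with the seed, bases 2 to 8, in capitals.
miR-541-5p: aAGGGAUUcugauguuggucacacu
miR-411-5p: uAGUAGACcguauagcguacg
miR-410-3p: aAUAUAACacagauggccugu
miR-409-3p: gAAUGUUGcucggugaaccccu
miR-381-3p: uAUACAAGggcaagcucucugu
miR-300-3p: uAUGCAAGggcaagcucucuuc
The next set, including members with the largest changes below, was as follows.
miR-380-3p: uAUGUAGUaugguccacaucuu
miR-134-5p: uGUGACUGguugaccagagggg
miR-323-3p: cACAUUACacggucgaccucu
miR-666-5p: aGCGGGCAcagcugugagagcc
miR-679-5p: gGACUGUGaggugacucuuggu
miR-679-3p: aGCAAGGUccuccucacaguag
miR-758-3p: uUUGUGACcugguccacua
miR-1197-3p: uAGGACACauggucuacuucu
miR-299a-3p: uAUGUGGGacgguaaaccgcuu
miR-299a-5p: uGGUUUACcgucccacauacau

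The table held a mature sequence for 60 of the 64 members, with 57 different seeds. The seed is the part of a miRNA that pairs first with its targets. Of the 57 seeds, 12 were also the seed of a miRNA that is no member, and 3 were shared by 2 members each. Those 3 pairs are printed because they show the repeated hairpins of the cluster.
miR-379-3p: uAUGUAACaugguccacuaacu
miR-411-3p: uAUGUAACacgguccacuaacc
miR-758-5p: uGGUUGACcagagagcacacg
miR-1197-5p: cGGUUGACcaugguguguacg
miR-376c-5p: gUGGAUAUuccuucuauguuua
miR-376b-5p: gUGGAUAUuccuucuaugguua
The counts of miR-299a and miR-299b arms, and of miR-376b-5p and miR-376c-5p, are uncertain, because the first 18 bases of each are held by its partner and reads could be split between them.

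Total counts per library ranged from 7.112 to 18.031 (in units of 1e6), and the members gave 386307 to 2552636 of them, so counting error was small for all but the rarest arms. A count of 0 allows up to 3 counts, or 0.166 to 0.422 CPM. Members were at 0 in 6 of 1280 member and library pairs, in all cases low arms (miR-1197-5p, miR-758-5p, miR-376c-5p, miR-487b-5p and miR-668-5p). The summed level of the 10 miR-302 and miR-367 arms, markers of the primed state, was 168 to 585 CPM at day 0 and 9297 to 74026 CPM at all later times. The 12 arms of the miR-290 cluster, typical of embryonic stem cells, summed to 244444 to 340027 CPM at day 0 and 46483 to 198170.3 CPM later. Both lists followed the labels. Lists of other cell types also moved. The 6 neural arms summed to 1393 to 2585 CPM at day 4 and 571 to 1596 CPM at the other times. The 10 fibroblast arms were at 3432 to 8843 CPM at day 0, 371 to 2261 CPM at day 4 and 429 to 3507 CPM later, with both miR-214 arms at 0 in female day 0 and in all day 4 libraries. The 8 blood arms were at 525 to 1551 CPM at day 0, 181 to 609 CPM at day 4 and 23.3 to 59.4 CPM later. The 7 endoderm arms, of which miR-122-3p was at 0 in both libraries of 8 groups, were at 1169 to 3636 CPM at day 0, 524 to 1886 CPM at day 4 and 1599 to 11915 CPM later. These sums hide opposite courses. miR-375-3p was at 5.51 to 12.6 CPM at day 0 and 211 to 11406 CPM later, and miR-192-5p at 1029 to 3338 and 284 to 901 CPM. In female cells, fibroblast miR-143-3p was at 8746 and 3654 CPM at day 0 and 1231 and 2046 CPM at days 27 to 30. There miR-199a-3p was at 24 and 44.5 CPM and 596 and 489 CPM. The 5 muscle arms did not exceed 73.2 CPM, and miR-206-3p was at 0 in 7 groups. The part of such cells in the results below was not tested. In RNA from whole cultures, a change in the number of expressing cells and a change in RNA per cell cannot be told apart.

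The members together took a larger share of all miRNA counts after the cells left 2i medium, in both lines. In female cells the share was 5.55% and 3.57% at day 0 (experiments 2 and 3, the order used throughout) and 16.3% and 16.6% at day 4. Day 10 had 16.9% and 11.4%, days 19 to 23 had 14.95% and 13.1%, and days 27 to 30 had 13.9% and 12.6%. In male cells it was 5.87% and 4.21% at day 0 and 12.3% and 11.5% at day 4. Day 10 had 9.23% and 8.35%, days 19 to 23 had 11.1% and 9.24%, and days 27 to 30 had 9.10% and 8.85%. No later library overlapped the day 0 libraries of its line. At each time after day 0 both female libraries lay above both male ones, while at day 0 the lines overlapped. The log2 ratio of the group means, day 4 to day 0, was 1.85 for the female line and 1.24 for the male line, and that of days 27 to 30 to day 0 was 1.54 and 0.83. No test was run on these sums. With DESeq2 size factors in place of shares, the ratios of days 27 to 30 were 1.04 and 0.24.

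**Figure D1:**
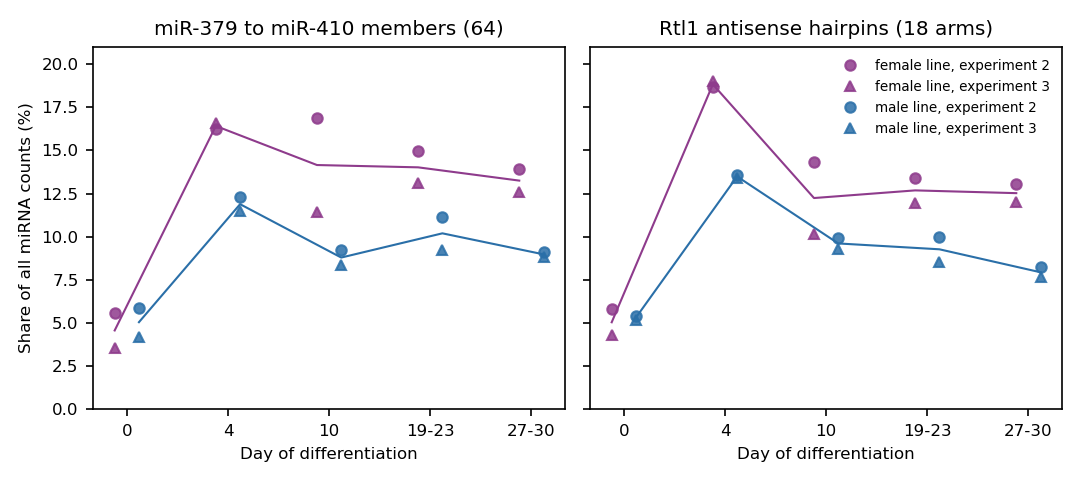
Share of all miRNA counts (%) taken by the 64 members and by the 18 arms of the hairpins antisense to Rtl1, by day and line. Each point is a library (circles experiment 2, triangles experiment 3) and lines join group means. The members take 3.57% to 5.87% at day 0 and 8.35% to 16.9% afterwards.

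Which members carried the early change was asked by comparing day 4 with day 0. In female cells 49 of the 64 members rose and none fell by edgeR's quasi-likelihood test with Benjamini-Hochberg adjustment (adjusted p under 0.05), with a median log2 change of 1.95. Over all 813 miRNAs tested, 24.5% were called higher, and the median log2 change was 0.03. All 64 members had a positive log2 change in female cells. In male cells 39 members rose and none fell, with a median of 1.31, where 25.1% of all miRNAs were called higher and the median of all was 0.09. The lines shared 36 of these calls: 13 members were called in the female line alone and 3 in the male line alone, which does not show that the lines differed. Of all 813 miRNAs, 144 were called higher in both lines, 55 in the female line alone and 60 in the male line alone. In 58 female and 51 male cases both day 4 libraries lay above both day 0 libraries, which held for 35.4% and 36.0% of all miRNAs tested. The female count was 31 without the day 0 library of experiment 3. The male count was 12 and 20 without the day 0 libraries of experiments 2 and 3, and 20 and 15 without the day 4 ones. It was 24 without either female library of days 27 to 30 or either male library of days 19 to 23, libraries outside the comparison that enter the scaling and the shared spread. It was 25 when the male line was fitted alone. No setting gave a member called lower at day 4. The split of calls over all miRNAs moved with the scaling: 62.6% of the female and 57.8% of the male calls were higher, and with total counts only 48.1% of the female, with RLE size factors 46.1% of the male.

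Within each experiment taken alone, from the log2 ratio of 1 library to another, all 64 members were higher at day 4 than at day 0 in female cells in both experiments, with medians of 1.79 and 1.82. In male cells 62 of 64 were higher in each, with medians of 1.28 and 1.18. Of all miRNAs tested, 53.1% and 47.4% were higher in the female pairs and 52.2% and 53.3% in the male pairs. Scaled by total counts, 61 female members were higher in experiment 2, with a median of 1.19, and 64 in experiment 3 (1.77), and 60 and 62 male ones (1.04 and 1.37). The medians of all miRNAs were then -0.27 and -0.06 in the female and -0.03 and 0.28 in the male pairs. Both experiments thus gave the same direction at day 4 for nearly all members.

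The most abundant member was miR-541-5p, from an intron of Mirg and the sixth most abundant of all miRNAs by mean level. In female cells its level was 16906 and 8554 CPM at day 0, 91539 and 51479 CPM at day 4, 64460.3 and 25010.4 CPM at day 10 and 31695 and 22892 CPM at days 27 to 30. The male levels were 21993 and 8727 CPM at day 0, 51868 and 21252 CPM at day 4, 40093 and 16486 CPM at day 10 and 15195 and 15191 CPM at days 27 to 30. The day 0 and day 4 libraries did not overlap in female cells. In male cells the day 4 library of experiment 3 lay below the day 0 library of experiment 2, although day 4 was the higher within each experiment. The log2 change at day 4 was 2.49 ± 0.61, adjusted p = 0.005 in female cells and 1.25 ± 0.59, adjusted p = 0.097 in male cells (± SE, edgeR throughout). The female call was lost without the day 0 library of experiment 3 (1.65, adjusted p = 0.09). miR-541-5p was the member with the largest part of the cluster's counts in both lines, 22.7% to 29.2% of them by group mean.

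miR-411-5p, of the hairpin that follows miR-379, was at 12544 and 6139 CPM at day 0, 52743 and 33695 CPM at day 4 and 22179 and 19093 CPM at days 27 to 30 in female cells. The male levels at the same times were 13068 and 8012 CPM, 32842 and 21019.7 CPM and 12081 and 12223 CPM. It rose at day 4 in both lines, by 2.21 ± 0.43, adjusted p = 0.00085 (log2) in female cells and 1.35 ± 0.42, adjusted p = 0.017 in male cells, without overlap of the groups. The male call was lost without the day 0 library of experiment 3 (0.77, adjusted p = 0.23), without the day 4 library of experiment 2 (0.81, adjusted p = 0.2), and, at adjusted p of 0.054 to 0.056, without either female library of days 27 to 30 or either male library of days 19 to 23. miR-410-3p, from the last hairpin, was at 11491 and 8342 CPM at day 0 and 39938 and 27281 CPM at day 4 in female cells and at 14979.9 and 8882 CPM and 23841 and 18064 CPM in male cells. Its log2 change was 1.76 ± 0.41, adjusted p = 0.0034 in female cells, lost without the day 0 library of experiment 3 (1.13, adjusted p = 0.084), and 0.81 ± 0.40, adjusted p = 0.11 in male cells. Day 0 and day 4 did not overlap in either line.

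The other abundant 3p arms followed the same course. miR-409-3p rose at day 4 by 2.42 ± 0.41, adjusted p = 0.00029 in female cells, from 5715 and 4524 CPM to 34057 and 20626 CPM. In male cells it rose by 1.73 ± 0.40, adjusted p = 0.0033, from 4309.8 and 4561 CPM to 18146 and 11194 CPM, a call lost without the day 4 library of experiment 2 (1.13, adjusted p = 0.06). miR-381-3p rose by 2.42 ± 0.43, adjusted p = 0.00044 in female cells and 1.804 ± 0.42, adjusted p = 0.0036 in male cells. miR-300-3p rose by 2.17 ± 0.37, adjusted p = 0.00035 in female cells and 1.25 ± 0.36, adjusted p = 0.012 in male cells. Both female calls held in all alternatives. Without the male day 0 library of experiment 3 the male values of miR-381-3p and miR-300-3p were 1.29 (adjusted p = 0.071) and 0.78 (adjusted p = 0.18), and without the male day 4 library of experiment 2 they were 1.14 (adjusted p = 0.076) and 0.72 (adjusted p = 0.2). The male call of miR-300-3p was also lost with no filter on low counts (1.07, adjusted p = 0.050), without the male day 0 library of experiment 2 (1.15, adjusted p = 0.065) and, at 0.94 to 0.95 with adjusted p of 0.051 to 0.052, without either female library of days 27 to 30 or either male library of days 19 to 23. miR-380-3p rose by 1.88 in female cells (adjusted p = 0.00022) and 1.30 in male cells (adjusted p = 0.0034), the latter lost without the day 0 library of experiment 2 (0.82, adjusted p = 0.11) or the day 4 library of experiment 3 (0.64, adjusted p = 0.17).

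miR-134-5p, known for acting on Limk1 in dendrites and, in differentiating embryonic stem cells, on messengers of pluripotency factors, was at 1067 and 539.1 CPM at day 0 and 3683 and 2459 CPM at day 4 in female cells. Its male levels were 948 and 768 CPM and 1633 and 1661 CPM. It rose in female cells (1.94 ± 0.44, adjusted p = 0.0031), a call lost without the day 0 library of experiment 3 (1.11, adjusted p = 0.09), and had a log2 change of 0.94 ± 0.43, adjusted p = 0.09 in male cells, with no overlap of the groups in either line. Its rarer partner arm miR-134-3p rose in both lines, by 2.45 ± 0.39, adjusted p = 0.00019 and 1.74 ± 0.38, adjusted p = 0.0023, the male call being lost without the day 0 library of experiment 2 (1.19, adjusted p = 0.057). miR-666-5p rose by 1.45 in female cells (adjusted p = 0.0024) and 1.43 in male cells (adjusted p = 0.0028). The female call was lost without the day 0 library of experiment 3 (0.87, adjusted p = 0.086) or the day 4 library of experiment 2 (1.003, adjusted p = 0.057), and the male call without the day 0 library of experiment 2 (1.05, adjusted p = 0.052) or the day 4 library of experiment 3 (0.99, adjusted p = 0.055).

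**Figure D2:**
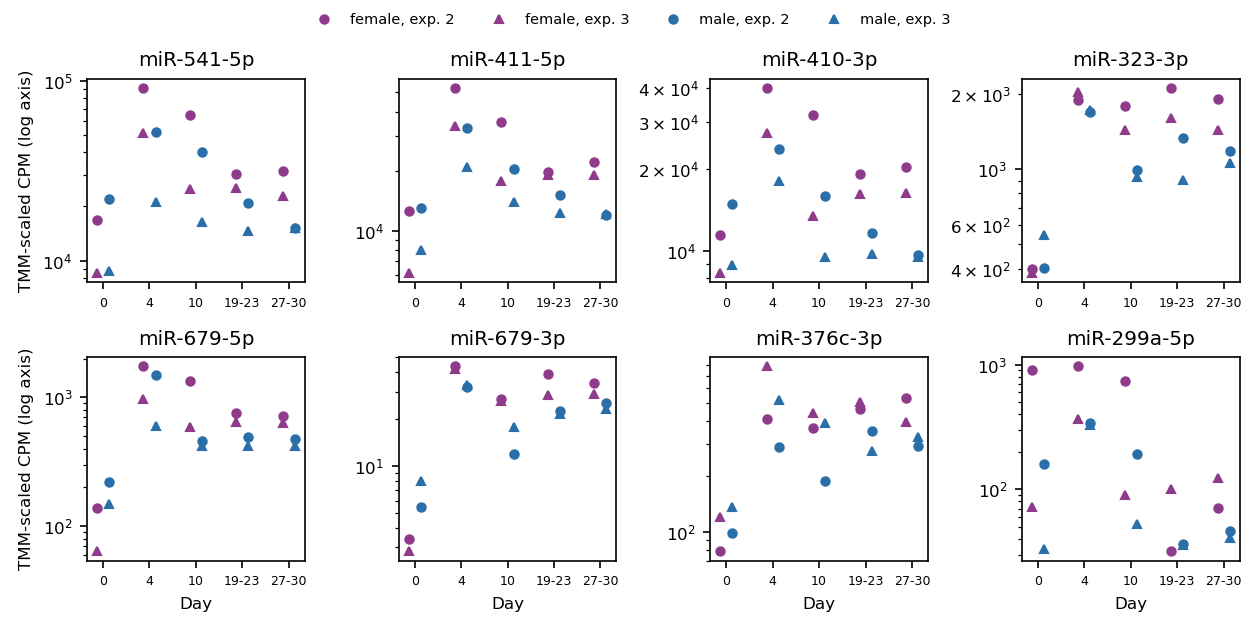
TMM-scaled CPM (log axis) of 8 members in each of the 20 libraries, by day, with colour for the line and symbol for the experiment. The group means of miR-541-5p, miR-411-5p and miR-410-3p peak at day 4, miR-323-3p, miR-679-3p and miR-376c-3p stay above day 0 in every later library, and miR-299a-5p differs most between experiments.

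The largest early changes in female cells were those of the miR-679 hairpin, 6.52 kb from the start of the cluster. miR-679-5p was at 139 and 63.8 CPM at day 0 and 1740.1 and 974 CPM at day 4 in female cells, and at 219 and 148 CPM and 1478 and 595 CPM in male cells. It rose by 3.74 ± 0.55, adjusted p = 0.00014 in female and 2.50 ± 0.52, adjusted p = 0.0019 in male cells. Its 3p arm was far rarer, at 3.39 and 2.83 CPM at female day 0 and 43.8 and 42.3 CPM at female day 4, and rose by 3.79 ± 0.38, adjusted p = 4e-06. In male cells miR-679-3p went from 5.48 and 8 CPM to 32.4 and 33 CPM and rose by 2.27 ± 0.35, adjusted p = 0.00021. These 4 calls held in every alternative setting and without each library in turn. In male cells the largest change was that of the rare miR-1197-5p, named after its values were seen, which went from 0.274 and 0.0 CPM to 1.97 and 0.445 CPM (3.16 ± 1.03, adjusted p = 0.022). With so few counts its fitted change depends on the prior count and is no bound.

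A further group kept its day 4 calls in every alternative in female cells. In it were miR-323-3p, with a change of 2.33 ± 0.32, adjusted p = 7.7e-05, and miR-376c-3p, with 2.59 ± 0.46, adjusted p = 0.0005. miR-758-3p rose by 2.78 ± 0.41, adjusted p = 0.00014. The rare partner arm of miR-410-3p, miR-410-5p, rose by 2.53 ± 0.38, adjusted p = 0.00015. miR-1197-3p rose by 2.45 ± 0.40, adjusted p = 0.00025. The calls of miR-323-3p and miR-410-5p also held in every alternative in male cells, at 1.86 ± 0.32, adjusted p = 0.00042 and 1.78 ± 0.37, adjusted p = 0.0019. miR-323-3p was at 398 and 385 CPM at day 0 and 1896 and 2044 CPM at day 4 in female cells and at 403 and 542.8 CPM and 1695 and 1729 CPM in male cells, so that the 2 libraries of each group lay close together. miR-376c-3p belongs to the miR-376 family, known for A-to-I editing by ADAR enzymes, and was at 78.5 and 120.4 CPM at day 0 and 408 and 788 CPM at day 4 in female cells. Its male levels were 98.7 and 136 CPM and 288 and 520.3 CPM, a change of 1.78 ± 0.45, adjusted p = 0.0058 that was lost without the day 0 library of experiment 2 (1.25, adjusted p = 0.11) or the day 4 library of experiment 3 (0.93, adjusted p = 0.18). Here the libraries of experiment 3 were the higher ones at days 0, 4 and 10, while for miR-541-5p those of experiment 2 were.

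At the other end, the 15 members not called in female cells at day 4 included miR-299a-5p (log2 change 0.44), miR-377-5p (0.78), miR-380-5p (0.90), miR-409-5p (1.28) and miR-300-5p (1.33). miR-299a-5p was at 912 and 72.6 CPM at female day 0, libraries far apart, and at 969.5 and 366 CPM at day 4. The male levels were 158 and 33.2 CPM at day 0, 342 and 325 CPM at day 4 and 46.7 and 40.6 CPM at days 27 to 30. Its partner miR-299a-3p rose in both lines at day 4, by 2.49 ± 0.59, adjusted p = 0.0041 and 2.63 ± 0.60, adjusted p = 0.0031, the female call being lost without the day 0 library of experiment 3 (1.35, adjusted p = 0.058) and the male call likewise (1.90, adjusted p = 0.059). No time and no line gave a call of higher for 9 members: both arms of miR-495, and miR-299a-5p, miR-300-5p, miR-376b-5p, miR-376c-5p, miR-409-5p, miR-668-3p and miR-758-5p. The same was not counted over all miRNAs.

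Both arms were called for 19 of 32 hairpins in female cells at day 4, 1 arm for 11, and neither for miR-495 and miR-668. In male cells both arms were called for 11 hairpins, 1 arm for 17 and neither for 4 (miR-329, miR-495, miR-544 and miR-668). By arm, 20 of 32 5p arms and 29 of 32 3p arms rose in female cells, with medians of 1.92 and 1.97, and 16 and 23 in male cells, with medians of 1.36 and 1.30. The changes of the 2 arms of a hairpin lay within 1 log2 unit of each other for 26 hairpins in female and 28 in male cells. The medians of 5p and 3p arms were therefore alike while more 3p arms were called. Calls by hairpin and arm were not counted over other hairpins, so these counts have no background.

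**Figure D3:**
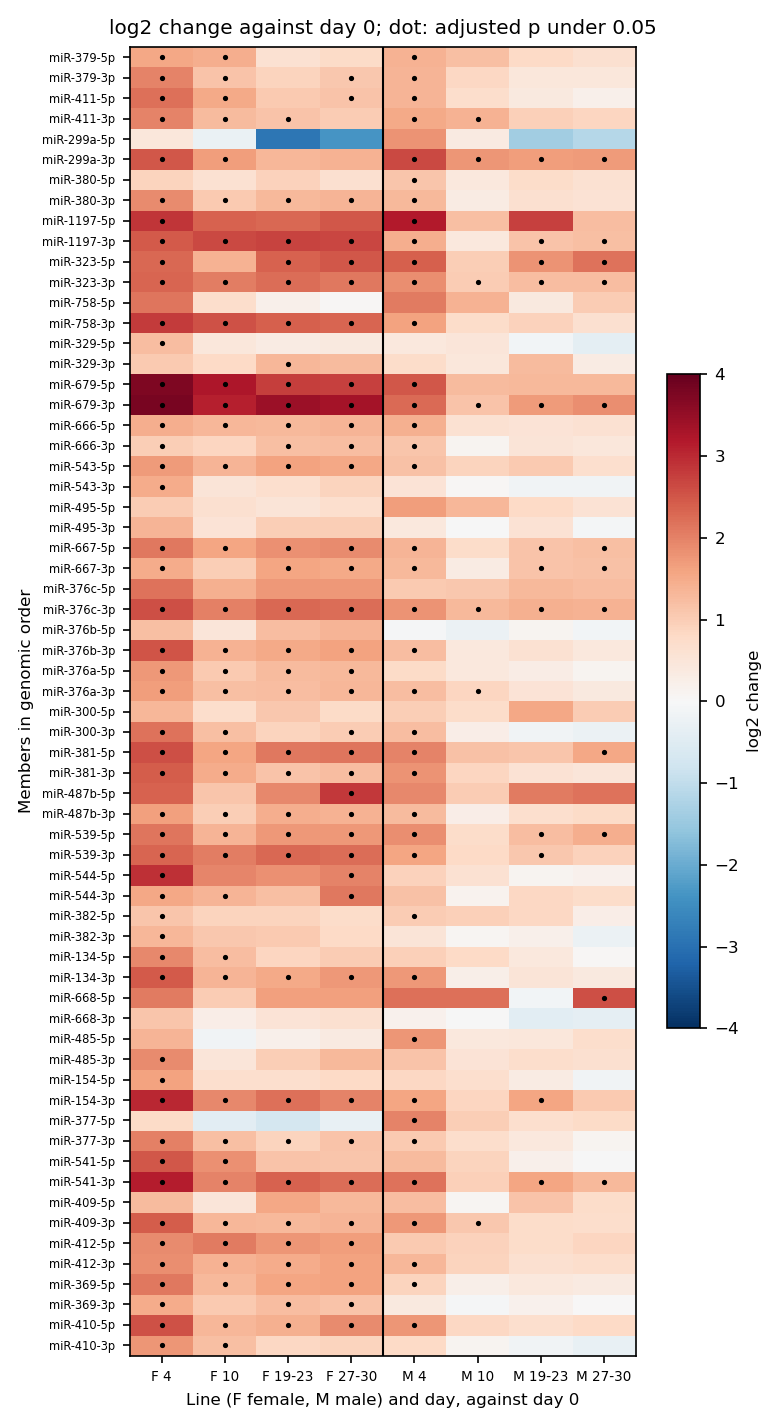
log2 change against day 0 (colour) of the 64 members, in genomic order from top to bottom, in each line (F female, M male) and window of days. Dots mark an adjusted p under 0.05 (edgeR). At day 4, 49 female and 39 male cells of the grid carry a dot, and at days 27 to 30, 37 and 12.

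Whether the rise was kept was asked by comparing established epiblast stem cells, at days 27 to 30, with day 0. In female cells 37 members rose and none fell, with a median log2 change of 1.35, where 24.1% of all miRNAs were called higher and the median of all was 0.01. In male cells 12 members rose and none fell, with a median of 0.65, where 19.6% of all miRNAs were called higher and the median of all was 0.05. The share of members called, 12 of 64, was thus near that of all miRNAs in the male line. The male count was 31 when the libraries were scaled by total counts only, a setting that moved the median of all miRNAs by 0.65. Under it 233 of all 813 miRNAs were called higher. With the replicate block the male count was 16, and the late calls over all miRNAs were not counted for that setting. The male count was 5 without the day 0 library of experiment 2, 4 and 6 without the late male libraries of experiments 2 and 3, and 6 without either late female library. The female count was 22 without the late library of experiment 2. In 59 female and 42 male cases both late libraries lay above both day 0 libraries (40.6% and 35.9% of all miRNAs), and in 1 male case both lay below, miR-329-5p. Of all calls, 55.4% of the female and 48.0% of the male ones were higher, and with total counts only 65.7% and 68.9%. The comparisons at day 4 and at the later times share their day 0 libraries.

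Within experiments, 61 and 63 of 64 members were higher at days 27 to 30 than at day 0 in female cells, with medians of 1.59 and 1.24. Of the male members 55 and 52 were higher, with medians of 0.77 and 0.49. Among all miRNAs tested, 50.8% to 54.4% were higher in these pairs. Scaled by total counts, 63 and 59 male members were higher, with medians of 1.49 and 1.03. The median of all miRNAs was then 0.61 and 0.57, so the percentages above are no background for these counts. The windows between gave 37 female and 7 male members called higher at day 10, and 33 and 12 at days 19 to 23, with none lower. Of all miRNAs, 21.3% and 16.7% were called higher at day 10, and 21.2% and 15.9% at days 19 to 23. The female count of day 10 was 18, of which miR-377-5p was lower (-1.38, adjusted p = 0.012), without the day 0 library of experiment 3, and 12 without the day 10 library of experiment 2. That of days 19 to 23 was 19 without the library of experiment 2. In that window miR-299a-5p was called lower in female cells by DESeq2 (-3.01, adjusted p = 0.0074). The same call came with scaling by relative log expression (-3.01, adjusted p = 0.046) and with no filter (-2.99, adjusted p = 0.041). It also came without each of 7 single libraries outside the comparison. Without the female day 0 library of experiment 3 the log2 change was -3.89 for miR-299a-5p and -1.64 for miR-377-5p. That fit compares with day 0 of experiment 2 alone. Within experiment 2 the lowest log2 ratio of a female member at days 19 to 23 was -4.82. Within experiment 3 the lowest was -0.07 in that window and -0.12 at day 10. The falls of these 2 members were thus not seen within experiment 3. The male counts were 13 and 19 with the replicate block, where 18.9% and 18.6% of all miRNAs were called higher. Scaled by total counts only, which moved the median of all miRNAs by 0.24 and 0.68, they were 12 and 38, where 18.1% and 27.3% of all miRNAs were called higher. The male count of day 10 was 2 without the day 0 library of experiment 2 or the day 10 library of experiment 3, and 4 without the day 0 library of experiment 3, the day 10 library of experiment 2, either male library of days 19 to 23, either late female library or the female library of days 19 to 23 of experiment 2. The male count of days 19 to 23 was 1 and 4 without the libraries of that window from experiments 2 and 3, 4 without either late female library, 5 without the female day 10 library of experiment 3, 6 without either male day 0 library or the female day 0 library of experiment 3, and 7 without the male day 4 or day 10 library of experiment 3.

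At all 4 later times, 3 members were called higher in both lines: miR-323-3p, miR-376c-3p and miR-679-3p. miR-679-3p had the largest late change of them, 3.34 ± 0.37, adjusted p = 1.1e-05 in female and 1.85 ± 0.35, adjusted p = 0.0009 in male cells, at 34.3 and 29 CPM and 25.4 and 23.3 CPM, and kept both calls in every alternative. miR-323-3p was at 1904 and 1441 CPM in late female cells (2.10 ± 0.32, adjusted p = 9.3e-05) and at 1179 and 1060.4 CPM in late male cells (1.24 ± 0.31, adjusted p = 0.0061). Its male call was lost without the male day 0 library of experiment 2 (1.003, adjusted p = 0.059), 1 of the 28 alternatives. miR-376c-3p was at 534 and 396 CPM in late female cells (2.22 ± 0.46, adjusted p = 0.0012) and 291 and 325 CPM in late male cells (1.39 ± 0.45, adjusted p = 0.023), the male call being lost in 9 of the 28. In female cells 27 members were called at all 4 later times, and in male cells 4, the 3 above and miR-299a-3p. Calls at all 4 times were not counted over all miRNAs, so these counts have no background. At day 10 alone, 7 of the 64 members and 83 of all 813 miRNAs were called higher in both lines.

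miR-1197-3p and miR-679-5p also stood among the largest late rises in female cells. miR-1197-3p went from 78.4 and 56.4 CPM at day 0 to 549 and 316 CPM late (2.68 ± 0.40, adjusted p = 9e-05) in female cells and from 126 and 100.3 CPM to 309 and 212 CPM in male cells (1.20 ± 0.38, adjusted p = 0.023). The male call was lost in 3 of the 28 alternatives. miR-679-5p was at 722 and 632 CPM late in female cells (2.73 ± 0.53, adjusted p = 0.00076) and at 477 and 423 CPM in male cells (1.29 ± 0.50, adjusted p = 0.053). miR-758-3p rose in late female cells (2.32 ± 0.41, adjusted p = 0.00033), and in male cells its log2 change was 0.66 ± 0.39, adjusted p = 0.19. Late changes were then set beside abundance, with no test. Among the 11 members over 1000 CPM the median late change was 1.24 in female and 0.41 in male cells, with 8 and 1 called (in male cells miR-323-3p), and among the 22 under 50 CPM it was 1.82 and 1.03, with 14 and 7 called.

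None of the 6 most abundant members was called in late male cells. miR-541-5p had a log2 change of -0.02 ± 0.58, adjusted p = 0.98 in late male and 1.10 ± 0.58, adjusted p = 0.14 in late female cells. That of miR-411-5p was 0.21 ± 0.41, adjusted p = 0.71 in the male line and 1.14 ± 0.41, adjusted p = 0.036 in the female line, a female call lost in 12 of the 28 alternatives. For miR-410-3p the values were -0.31 ± 0.40, adjusted p = 0.57 in the male and 0.89 ± 0.40, adjusted p = 0.083 in the female line. For miR-300-3p they were -0.24 ± 0.36, adjusted p = 0.62 in the male and 1.03 ± 0.36, adjusted p = 0.031 in the female line, the latter lost in 9 of the 28 alternatives. The late level of miR-299a-5p was lower than at day 0 in the fitted values, though not called in edgeR. Its log2 change was -2.35 ± 1.11, adjusted p = 0.1 in female cells, where DESeq2 called it lower (-2.47, adjusted p = 0.029). Without the female day 0 library of experiment 3 the late female log2 change was -3.35 for miR-299a-5p and -1.26 for miR-377-5p. That fit compares with day 0 of experiment 2 alone. Within experiment 2 the lowest late log2 ratio of a female member was -3.67. Within experiment 3 it was -0.27, and 63 of 64 members were higher late than at day 0. Falls of the fitted size were thus not seen within experiment 3.

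Comparing days 27 to 30 with day 4 directly, no female member was called in either direction at an adjusted p under 0.05 in edgeR. At an unadjusted p under 0.05, 14 female members were lower and none higher, and 16.1% of all miRNAs were lower. DESeq2 called 1 female member lower, miR-299a-5p, and 7.63% of all miRNAs. In male cells 2 were called lower, miR-300-3p (-1.49 ± 0.36, adjusted p = 0.023) and miR-134-3p (-1.35 ± 0.37, adjusted p = 0.036), where 5.54% of all miRNAs were called lower and 4.43% higher. In the female line 6.4% of all miRNAs were called lower and 3.32% higher. Both late libraries lay below both day 4 libraries for 36 female and 44 male members, and for 36.9% and 38.7% of all miRNAs. The medians over the members were -0.46 in female and -0.68 in male cells, and over all miRNAs -0.20 and -0.29. With the experiment number as a block, 6 female and 7 male members were called lower, and 9.59% of all miRNAs in each line, so that the members' counts were near the background. The female ones were miR-300-3p (-1.12), miR-381-3p (-1.16), miR-409-3p (-1.02), miR-410-3p (-0.85), miR-411-5p (-1.03) and miR-541-5p (-1.34), the 6 most abundant members, and the male ones were the same 6 and miR-134-3p. Scaled by total counts only, which moved the median of all miRNAs by 0.71 and 0.67, none was called in either line, and the medians over the members were 0.15 and -0.05. The share of higher among all calls went from 34.2% to 66.2% in the female and from 44.4% to 78.2% in the male line under that scaling, and with RLE size factors to 70.3% in the male line. Over single libraries left out, the male count ranged from 0 to 4. It was 0 without either late male library, the male day 4 library of experiment 2 or the female library of days 19 to 23 of experiment 2, 4 without the female day 0 library of experiment 3, and 1 without the female libraries of day 0, experiment 2, day 4, experiment 2, either of day 10 or either of days 27 to 30, or the male libraries of day 0, experiment 2, day 4, experiment 3, either of day 10 or either of days 19 to 23. The mean TMM-scaled level was highest at day 4 for 53 members in female and 56 in male cells, and lowest at day 0 for 61 and 51. The same was not counted over all miRNAs, so these counts have no background, and they were made with this scaling only.

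The lines were compared at day 0 and in their changes. No member differed between the lines at day 0 by edgeR (adjusted p under 0.05), where 8.73% of all miRNAs were called. At an unadjusted p under 0.05 there were 4 members and 19.1% of all miRNAs. DESeq2 called miR-377-5p higher (1.88) and miR-679-3p lower (-1.21) in female cells, and 12.7% of all miRNAs in either direction. Without the female day 0 library of experiment 3, miR-377-5p (2.59) and miR-485-5p (1.79) were called higher in female cells. Without each of 9 other libraries in turn miR-679-3p was called lower (-1.23 to -1.53). miR-377-5p was at 219 and 27.3 CPM in the female and 38.6 and 26.7 CPM in the male day 0 libraries, so that 1 female library stood apart.

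The female change was the larger for 54 of 64 members at day 4 and for 57 of 64 at days 27 to 30, compared with 58.1% and 58.8% of all miRNAs tested. The median of the female change minus the male change was 0.70 and 0.87 (log2), and over all miRNAs 0.17 and 0.24. No single member passed the test of this difference in edgeR or in DESeq2, where edgeR called 0.0% (day 4) and 0.369% (days 27 to 30) of all miRNAs and DESeq2 1.35% and 4.8%. At an unadjusted p under 0.05, 5 members at day 4 and 11 at days 27 to 30 had a larger female change, as did 7.87% and 7.13% of all miRNAs. For miR-541-5p the difference was 1.24 ± 0.82, adjusted p = 0.5 at day 4, and for miR-410-3p it was 1.20 ± 0.56, adjusted p = 0.35 at days 27 to 30. The larger female change was thus seen as a count over the list, and no single member passed the adjusted threshold.

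**Figure D4:**
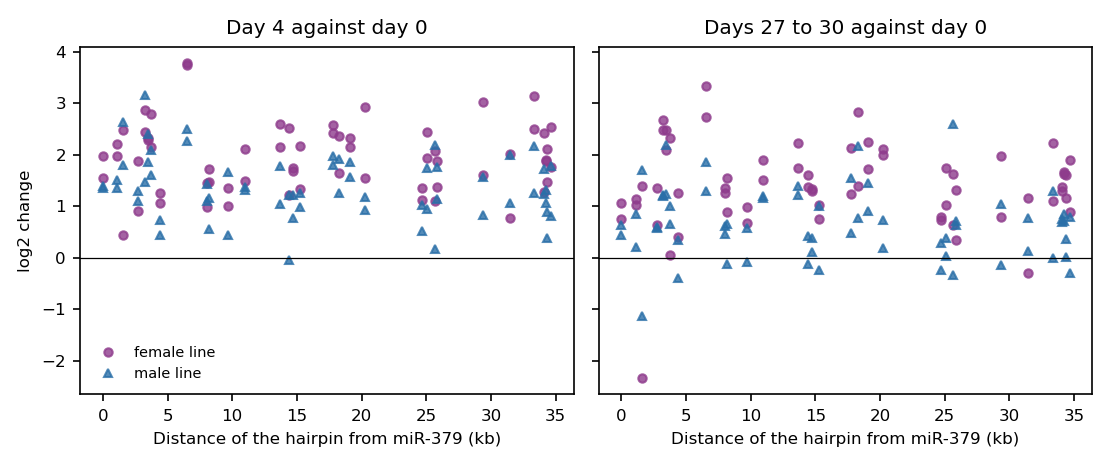
log2 change against day 0 of each member by the distance of its hairpin from miR-379 (kb), for day 4 and days 27 to 30, circles for the female and triangles for the male line. At day 4 all 64 female points and 63 male points lie above 0, and no slope with distance is visible.

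The changes were also set against position along the cluster. Across the 64 members, which share libraries and, by hairpin, a transcript, the correlation of log2 change with distance from miR-379 was 0.01 in female and -0.21 in male cells at day 4, and 0.003 and -0.12 at days 27 to 30. These are descriptions across miRNAs, which are not replicates. Of the 42 arms upstream of the annotated Mirg gene, 32 rose in female and 28 in male cells at day 4 (medians 2.04 and 1.36). Of the 16 arms in its exons, 12 and 8 rose (medians 1.87 and 1.05), and of the 6 in its introns, 5 and 3 (medians 2.45 and 1.41). Late, 27 and 10 of the upstream arms, 7 and 1 of the exonic and 3 and 1 of the intronic ones were called.

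Most arms of the rest of the maternal domain rose at day 4 in both lines. Late, fewer Rtl1 antisense arms were called in the male line, which does not show that the lines differed. For a line difference in the late change, edgeR called 3 of all 813 miRNAs, each with the smaller female change. Over all miRNAs, 24.5% in female and 25.1% in male cells were called higher at day 4, and 24.1% and 19.6% late. Of 18 arms of hairpins antisense to Rtl1, several of which guide the cleavage of its messenger, 16 rose in female and 14 in male cells at day 4 (medians 2.15 and 1.18), and 13 and 2 were called higher late (medians 1.34 and 0.30), with 1 lower in late male cells. Named after their values were seen, the late male calls were miR-431-3p and miR-665-5p, higher by 0.93 and 2.90, and miR-136-5p (-1.67). miR-127-3p, the most abundant of them, went from 43298 and 29154 CPM to 238939 and 145211 CPM by day 4 in female cells (2.41 ± 0.45, adjusted p = 0.00072) and from 44767 and 32568 CPM to 129691 and 78866 CPM in male cells (1.43 ± 0.44, adjusted p = 0.016). Of 8 other arms of the same stretch, 7 rose in each line at day 4 and 5 late. Among them miR-494-3p rose by 2.86 ± 0.51, adjusted p = 0.0005 in female and 2.04 ± 0.50, adjusted p = 0.0048 in male cells at day 4. Of 19 arms in or near Meg3 and Rian, 14 were tested, and 11 female and 13 male ones rose at day 4. The 19 summed to 5290 to 7278 CPM at day 0 and 14242 to 16424 CPM late in female cells. In male cells they summed to 7435 to 7626 and 8418 to 8985 CPM. The 18 Rtl1 antisense arms summed to 58418 to 66989 CPM at male day 0 and 56879 to 61451 CPM in late male cells.

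Which arm of a hairpin was kept was read from the 5p share of its counts, for the 31 hairpins with at least 100 counts in every library (all but miR-544). The 5p arm held over 50% in every library for 10 hairpins, among them miR-541, miR-411, miR-134 and miR-679, and the 3p arm for 17, among them miR-410, miR-409, miR-381 and miR-300. For miR-541 the 5p share was at least 99.9% in every library, and for miR-410 at most 0.66%. The exact 95% binomial interval, which covers counting error only, had a half-width of 0.537 percentage points at the median and 9.76 at most. For 30 of the 31 hairpins the day 0 shares overlapped those of later days. The exception was miR-543, with 1.97 and 2.4% 5p in female and 2.21 and 1.64% in male day 0 libraries.

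The arm with most counts differed between libraries for 4 hairpins, miR-299a, miR-377, miR-485 and miR-369. For miR-485 the 5p share in experiment 2 was 74.5%, 68.5% and 55.2% at days 0, 4 and 10 of the female line, with 74.8%, 76.8% and 53.9% for the male line. In experiment 3 it was 31.2%, 37.8% and 44.5% for the female line, with 37.6%, 44.8% and 42.4% for the male line. The shares thus went with the experiment rather than with the line. At days 27 to 30 they were 46.6 and 39.9% and, in male cells, 51.1 and 52.9%, with experiment 2 the higher in 1 line and the lower in the other.

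The 5p share of miR-299a was 73.8 and 51.3% at female day 0, 41.8 and 29.9% at day 4 and 12.1 and 19.3% at days 27 to 30. In male cells it was 49.2 and 31.1%, 27.8 and 36% and 11.1 and 9.31%. It was lower in each late library than in each day 0 and day 4 library of both lines. The 5p arm of miR-376b made up 1.13 and 8.17% at female day 0 and 1.22 and 10.4% at male day 0, and 1.02 and 3% and 1.22 and 3.55% at day 4, lower in experiment 2 each time. Over days 0, 4 and 10 in both lines, the 5p share differed between the experiments in the same direction in all 6 pairs for 12 of the 31 hairpins (38.7%), and for 55 of 159 hairpins that are neither members nor on the lists of the domain (34.6%). These shares were not tested against each other.

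**Figure D5:**
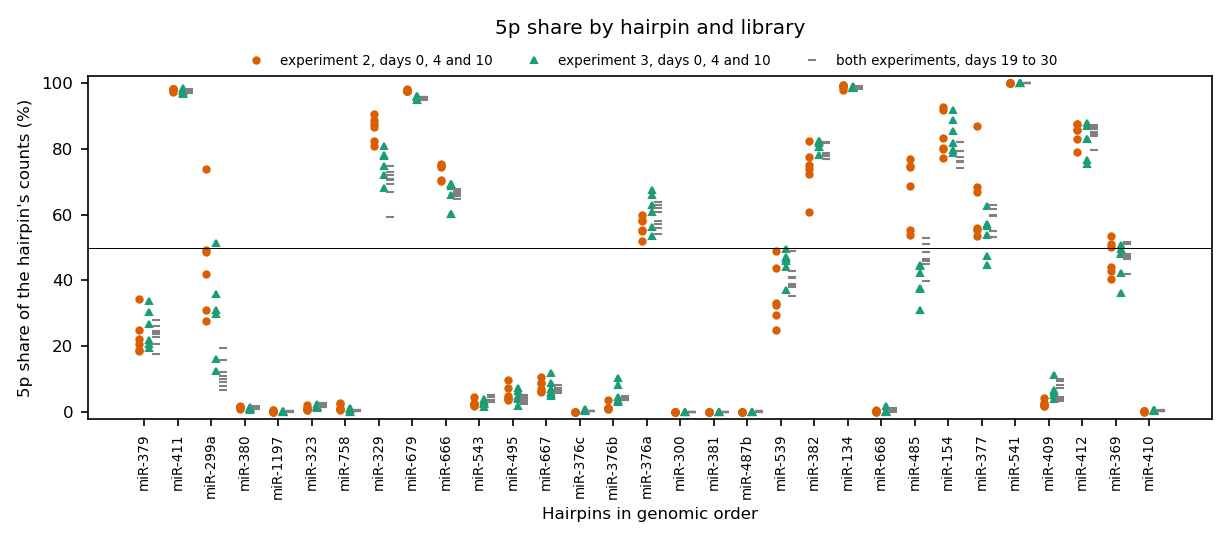
5p share (%) of the counts of each of 31 hairpins, in genomic order: circles, experiment 2 and triangles, experiment 3 at days 0, 4 and 10 in both lines, and grey bars, all libraries of days 19 to 30. Most hairpins keep 1 arm in all libraries, while miR-299a, miR-485 and miR-377 spread across the 50% line.

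TMM-scaled levels of single members also differed between experiments. At days 0, 4 and 10 in both lines, miR-541-5p was higher in experiment 2 than in experiment 3 in all 6 pairs, by 1.78 to 2.58 times, and miR-411-5p by 1.46 to 2.04 times. miR-410-3p was higher in experiment 2 by 1.32 to 2.35 times, and miR-381-3p and miR-300-3p were also higher there in all 6 pairs. miR-380-3p and miR-376c-3p were lower there in all 6, at 0.685 to 0.970 and 0.488 to 0.829 of the level in experiment 3. This did not last: in the later windows miR-380-3p was higher in experiment 2 in 4 of 4 pairs and miR-376c-3p in 2. miR-541-5p and miR-410-3p were higher there in 4, miR-411-5p and miR-300-3p in 3 and miR-381-3p in 2. These ratios depend on the scaling. TMM factors, which divide the levels, were lower in experiment 2 at days 0, 4 and 10. At female day 4 they were 0.551 and 0.838. There miR-410-3p had 345495 of 15700514 counts in experiment 2 and 241964 of 10578374 in experiment 3, a smaller share in experiment 2. The pairs were not recounted by total counts. The experiments are balanced over days and lines, so each comparison holds 1 library of each on either side. Library titles also carry GEI numbers that differ between the experiments and for late stages of experiment 2. Their meaning is not given, and they were not used as a batch.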

How the data were processed

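Small RNA libraries from 20 cultures of mouse cells were analysed, in 10 groups of 2. The authors deposited, per line, a table of raw counts per mature miRNA, the unit used here. The submitters' processing notes name CASAVA 1.8.2, DESeq2, GRCm38 and mm10. For the aligner, the counter and the treatment of reads that fit several miRNAs, the answer is not given in the sources used here. Normalized signal tables that the authors deposited equal the raw counts divided by 1 size factor per library. The authors also deposited variance-stabilized log2 tables. Neither kind entered a test. Counts of the 1063 miRNAs in both tables were joined and tested with edgeR 4.0.16 (R 4.3.3): filterByExpr kept 813 miRNAs with 99.997% of the counts, TMM scaling, 1 coefficient per group over all 20 libraries, quasi-likelihood F test, Benjamini-Hochberg adjustment within each comparison at 0.05. The model was also run on counts simulated with 1 spread for all miRNAs and no difference between experiments, so that run does not cover such differences. Levels are TMM-scaled CPM, and shares use plain totals. Log2 ratios within an experiment add 0.5 CPM.

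Named members are the 10 most abundant, the 4 largest called rises and falls per line at day 4 and at days 27 to 30 (at least 50 CPM in the higher group, no overlap), called line differences, and their partner arms. Other members named in counts and among the arm shares were chosen after their values were seen. The members and lists were chosen with earlier results of these data known. The same experiment name marks libraries of 1 differentiation experiment, so numbers pair the libraries. Deviations of same-numbered libraries correlated between the lines at each time (r = 0.13 to 0.55), and between 2 times of a line by -0.0998 to 0.40. The alternatives, 28 per comparison within a line, were other scalings, other filters, the replicate block, DESeq2 1.42.0, each line alone and each library left out.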

Additional observations from a re-analysis of the deposited data

How the results depend on the processing

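Of 76 called changes of named members against day 0, none reversed in 28 alternatives each (27 for the rarest arms), and 36 were kept in all of them. With each library left out in turn, the counts of members called ranged from 31 to 49 (female, day 4), 12 to 36 (male, day 4), 12 to 37 (female, day 10), 2 to 8 (male, day 10), 19 to 34 (female, days 19 to 23), 1 to 16 (male, days 19 to 23), 22 to 37 (female, days 27 to 30) and 4 to 15 (male, days 27 to 30). Against day 4 the late counts ranged from 0 to 0 (female) and 0 to 4 (male), line differences at day 0 from 0 to 2, and both line differences in the change from 0 to 0. The log2 ratios of the summed share ranged from 1.56 to 2.20 and 1.02 to 1.498 at day 4, female and male, and from 1.26 to 1.89 and 0.61 to 1.09 late.

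With the replicate block, which uses the pairing of libraries by experiment, the counts were 51 (female) and 42 (male) at day 4, 45 and 16 late, 13 for male day 10, 19 for male days 19 to 23, and 6 and 7 for late against day 4. It lost no call of a named member against day 0. With total counts only the male counts were 31 late, 12 at day 10, 38 at days 19 to 23 and 0 for late against day 4. Fitted alone, the male line gave 25 members at day 4, 2 at day 10 and 5 at days 19 to 23. DESeq2 gave 19 for male days 19 to 23, 1 for female late against day 4 and 2 for the line difference at day 0. TMM without the domain gave 1 for female late against day 4. For male late against day 4, RLE scaling gave 1, no filter 0 and a minimum mean of 10 CPM gave 1. With DESeq2 size factors the late log2 ratio of the summed share was 1.04 (female) and 0.24 (male). The cause of these shifts was not tested. Depth limits only the rarest arms: 10 members averaged under 10 CPM, where 3 counts are 0.166 to 0.422 CPM.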
